A study of Homo sapiens with 4 samples.

Results

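The genes described here encode 28 proteins of the small ribosomal subunit, namely RPSA, FAU and 26 genes with an RPS symbol, and were selected by the exact symbol in the gene label that each crosslink site carries. A site was listed in 26 of them, out of 14416 genes that had a site in either immunoprecipitation. The data come from iCLIP, a protocol that maps contacts between a protein and RNA to single nucleotides, in which RNA is fixed to protein by UVC light, the protein is recovered with an antibody, and the ends of the cDNAs mark the cross-linked nucleotides. The cells were wild-type (WT) MCF10A, a non-transformed cell line from breast epithelium, grown in medium with horse serum, epidermal growth factor, insulin, hydrocortisone and cholera toxin. In 1 group the antibody was against PDCD4, and in the other it was a control IgG, with 2 replicates each and no other difference in genotype or treatment in the labels. For each group the authors pooled the replicates into 1 list of sites, so that the spread between replicates is unknown, the groups could not be tested against each other, and the 95% intervals below cover counting error only.

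Ribosomal proteins of the small subunit join the 18S rRNA to build the particle that scans mRNA, decodes it and recruits the initiation factors. Their mRNAs are short, abundant and translated under the control of growth signals through a pyrimidine tract at the 5′ end (the TOP motif), and several of the genes carry small nucleolar RNAs (snoRNAs) in their introns that are released from the spliced intron and guide the modification of rRNA. PDCD4 is an RNA-binding tumour suppressor that binds the helicase eIF4A and inhibits translation initiation.

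The PDCD4 list held 158922 sites with 409308 cDNAs, and the IgG list 111361 sites with 276139 cDNAs. Values of the lists were compared as shares, as cDNAs per 10000 cDNAs of a list. The keratins, the laminin and integrin chains and the other genes among 8 markers of basal breast epithelium all had listed sites, with 1492 PDCD4 and 446 IgG cDNAs, whereas none was listed in 4 markers of leukocytes, endothelium, fibroblasts or smooth muscle.

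The members held 264 sites with 734 cDNAs for PDCD4, and 126 sites with 351 cDNAs for IgG. Most were shallow. In the PDCD4 list, 204 sites had a score (the number of cDNAs at the site) of 1 to 3, 47 had 4 to 5 and 13 had more than 5, and the IgG list had 99, 23 and 4 such sites. The median score was 3 in both lists, and the highest scores were 9 for PDCD4 and 7 for IgG. Of the members' positions, 5 were listed in both, in RPSA, RPS6, RPS20 and, as an adjacent pair, RPS12. Over the whole lists, 721 positions were shared, of 158922 PDCD4 and 111361 IgG sites. The methods describe a subtraction of IgG sites from the PDCD4 replicates, so this overlap is not read as a result about the members. Sequences around PDCD4 sites, all but 1 with a score greater than 5, are shown first, because they represent several kinds of place in which the members were cross-linked: the coding sequence, the borders of an exon, the edge or body of an intronic snoRNA, and the 5′ end of an mRNA. Introns outside snoRNAs held 74 of the 264 PDCD4 sites, and of these only sites at an exon or snoRNA edge are shown.

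Scores of 6 or more in the CDS included those of RPS24 (chr10:78037180-78037208, + strand, score 8 at the first nucleotide of exon 4, and chr10:78035569-78035597, + strand, score 6 in exon 3), RPS12 (chr6:132814984-132815012, + strand, score 7 in exon 3), RPS6 (chr9:19378488-19378516, - strand, score 7 in exon 4) and RPS3 (chr11:75400698-75400726, + strand, score 6 in exon 2). RPS16 (at 2 positions), RPS19 and a second position of RPS6 also had a coding score of 6 and are not shown. Each line gives 29 nt of the hg38 genome (GRCh38) on the strand of the gene, 5′ to 3′, and the capital is the listed nucleotide.
RPS24, exon 4 start: cttttctcattcagCatggcctgtatgag
RPS24, exon 3: aactagccaaaatgTacaagaccacaccg
RPS12, exon 3: aggtgtaatggacgTtaatactgctttac
RPS6, exon 4: aggagagaaggataTtcctggactgactg
RPS3, exon 2: tcgctgatggcatcTtcaaagctgaactg

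The other kinds of place are given by a site at the last nucleotide of an intron in RPS25 (chr11:119018040-119018068, - strand, score 6), the site 1 nt before the snoRNA SNORD14A in an intron of RPS13 (chr11:17074731-17074759, - strand, score 9, the highest of any member), sites inside SNORA6 (chr3:39408387-39408415, + strand, score 6) and SNORA62 (chr3:39411116-39411144, + strand, score 6) in introns of RPSA, and a site at nucleotide 3 of the RPS16 mRNA (chr19:39435933-39435961, - strand, score 4). The genome, the strand and the capital are as above.
RPS25, intron end: gctgccctcctacaGccgcctaaggacga
RPS13, before SNORD14A: tttcacatgaattgCtcactatgatgatt
RPSA, SNORA6: aggctgcacactatTaaagctcagggtgg
RPSA, SNORA62: gtagtgtgctacatGaggggcaagttttc
RPS16, mRNA start: gcccctagctttccTtttccggttgcggc

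To ask whether the members were cross-linked more in the PDCD4 immunoprecipitation than in the control, their summed scores were set side by side. They took 17.9 of every 10000 PDCD4 cDNAs and 12.7 of every 10000 IgG cDNAs, a log2 ratio of 0.50 (0.31 to 0.68). The ratio was 0.31 (0.11 to 0.50) when sites in embedded snoRNAs were left out, with 629 PDCD4 and 343 IgG cDNAs. Without RPSA, the gene with the most PDCD4 cDNAs, it was 0.32, and with only the sites of a score greater than 5, which left 85 PDCD4 and 25 IgG cDNAs, it was -0.19 (-0.85 to 0.51). Among members with at least 20 cDNAs over both lists, which 20 were, 7 were more than 2-fold higher in the PDCD4 list (RPSA, RPS2, RPS14, RPS15, RPS16, RPS23 and RPS25, with 1 cDNA added to each sum) and 2 were more than 2-fold lower (RPS15A and RPS20). Over all 7305 genes with that minimum, 16.4% were higher and 16.1% lower by this rule, with a median log2 ratio of -0.10, and the median of the 20 members was 0.63. Only for RPSA, RPS2 and RPS16 among the 7 did the counting interval stay above a ratio of 1, and for RPS25, which had no IgG site, no interval could be formed and the call rests on the added cDNA.

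The ratio over all member sites was then set beside those of related gene families. Sites in embedded snoRNAs were not set apart in these sums. The 47 genes of large subunit proteins had 1798 PDCD4 and 521 IgG cDNAs, a log2 ratio of 1.22 (1.08 to 1.36), and 21 of the 36 with enough cDNAs were more than 2-fold higher. This interval lay above that of the small subunit genes, while the intervals of the other families overlapped with that of the small subunit genes. For 9 factors that assemble the small subunit, such as NOB1, the nuclease that makes the last cut in the rRNA, the ratio was 0.99 (0.57 to 1.42), and for 16 other mRNAs known to start with a TOP motif, such as EEF2, it was 0.41 (0.30 to 0.52). Within the small subunit, the 12 proteins of the head and beak had 289 PDCD4 and 119 IgG cDNAs, a log2 ratio of 0.71 (0.40 to 1.03). The 16 of the body and platform had 445 and 232, a ratio of 0.37 (0.14 to 0.61), so that these intervals overlapped. The body and platform sums include 83 PDCD4 and 3 IgG cDNAs in snoRNAs of RPSA, and group ratios without snoRNAs were not computed. In the coding sequence alone the ratios were 1.30 (0.80 to 1.83) and 0.67 (0.32 to 1.03), again with overlapping intervals.

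The excess over IgG was not spread evenly over the genes, as the plot of log2 ratios by region shows. Sites were assigned to the Ensembl canonical transcript of each member, with snoRNAs set apart. The coding sequence (CDS) held 379 PDCD4 cDNAs at 128 sites and 138 IgG cDNAs at 51 sites, which was 51.6% and 39.3% of the members' cDNAs and a log2 ratio of shares of 0.89 (0.60 to 1.18). Introns outside snoRNAs held 205 and 153 cDNAs, 27.9% and 43.6% of the members' totals, with a ratio of -0.15 (-0.45 to 0.17). The 3′UTR was lower in the PDCD4 list, with 7 cDNAs at 3 sites against 14 at 5 sites and a ratio of -1.57 (-3.12 to -0.16), and the 5′UTR, with 14 and 12 cDNAs, gave -0.35 (-1.57 to 0.90). The embedded snoRNAs had the largest ratio of these regions, 3.15 (2.12 to 4.40), from 105 PDCD4 and 8 IgG cDNAs.

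**Figure D1:**
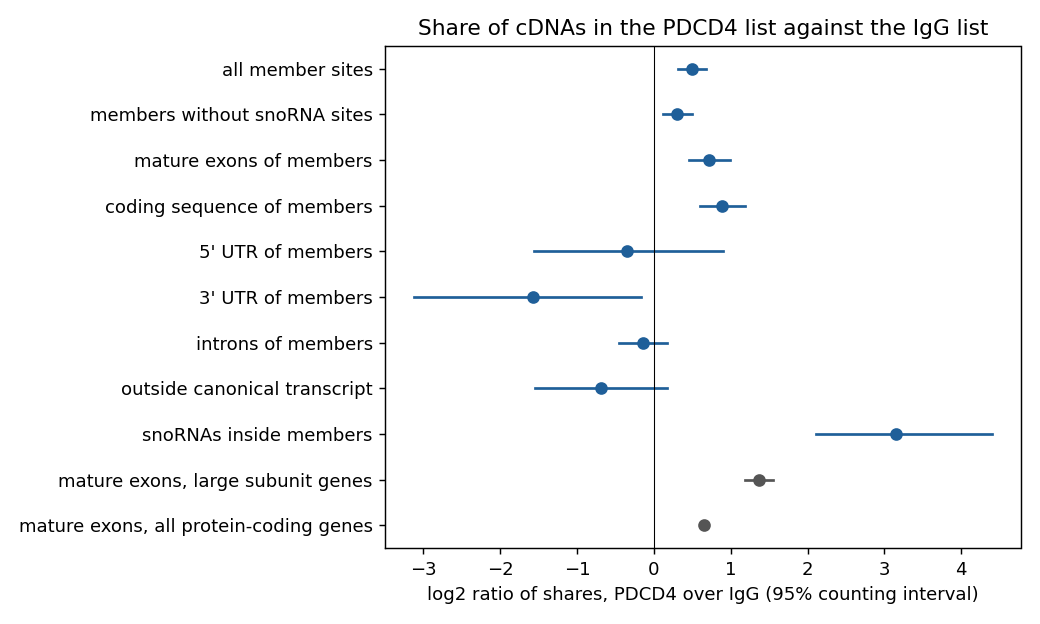
Log2 ratio of the share of cDNAs in the PDCD4 list to that in the IgG list (x axis), for all sites of the members, for their regions and, in grey, for the exons of large subunit and all protein-coding genes, with lines for the 95% counting interval. The snoRNAs, at 3.15, and the coding sequence, at 0.89, lie to the right of 0, the introns lie at -0.15 and the 3′UTR at -1.57.

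Mature exons held more of the members' cDNAs than introns in the PDCD4 list. In the IgG list the exon share overlapped with that of introns, 43.6% (38.3 to 49.0). Part of the difference in exons between the lists was shared by genes at large. Exonic sites (CDS and UTRs) made up 54.5% (50.8 to 58.1) of the members' PDCD4 cDNAs and 46.7% (41.4 to 52.1) of their IgG cDNAs. Over all protein-coding genes these shares were 44.2% and 28.1%, and in the large subunit genes 70.2% and 63.3%. The log2 ratio of exonic shares was 0.72 (0.45 to 0.99) for the members, 0.65 (0.64 to 0.66) for all protein-coding genes and 1.37 (1.19 to 1.55) for the large subunit genes, so that in their exons the members were not separable from protein-coding genes in general by counting error. When exonic sites alone were counted, 10 members reached 20 cDNAs, of which 5 were more than 2-fold higher (RPS2, RPS3, RPS16, RPS24 and RPS25) and 1 more than 2-fold lower (RPS9), beside 35.4% higher and 6.35% lower of 3340 protein-coding genes. Their median log2 ratio was 0.95, beside 0.55 for all those genes. The exon share depended on the transcripts taken, since the exons of all annotated transcripts of the members held 70.03% of PDCD4 and 70.4% of IgG cDNAs.

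The snoRNA signal came mostly from 1 host gene. RPSA encodes a protein needed for the maturation of the small subunit, also known as the laminin receptor, and had 116 PDCD4 cDNAs at 41 sites against 16 IgG cDNAs at 4 sites, a log2 ratio of 2.29 (1.53 to 3.14). With 1 cDNA added to each sum this was 2.22, and with only the sites of a score greater than 5, which left 12 PDCD4 and 6 IgG cDNAs, it was -1.06 on the same scale. Of all its listed cDNAs, 83 PDCD4 cDNAs and 3 IgG cDNAs lay inside SNORA6 and SNORA62, both of the H/ACA class that guides pseudouridylation, a log2 ratio of 4.22 (2.63 to 6.53). The rest of RPSA had 33 and 13 cDNAs, with a ratio of 0.78 (-0.19 to 1.83), and its coding exons 13 and 0. Most PDCD4 cDNAs of RPSA were therefore counted within its snoRNAs and not within its mRNA.

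SNORA62 (chr3:39411054-39411206) held 23 PDCD4 sites with 58 cDNAs and no IgG site. SNORA6 (chr3:39408389-39408539) held 8 PDCD4 sites with 25 cDNAs and 1 IgG site with 3. The PDCD4 sites stopped well before the 3′ end of both RNAs, as the plot of scores along them shows. In SNORA62 they ran from nt 2 to nt 94 of 153, and 33 of the 58 cDNAs lay in the first 76 nt. In SNORA6 they ran from nt 2 to nt 87 of 151, with 20 of 25 cDNAs in the first 75 nt. Sites were also rare before exon ends, as described below. The last 60 nt of the members' last exons held 0 PDCD4 and 1 IgG sites, beside 35 and 12 in the rest of those exons. Whether the gap in the snoRNAs is of the same kind was not tested. The nucleotide just before each snoRNA, which counts as intron here, was also listed: before SNORA6 it had a score of 4 for PDCD4 and 6 for IgG, and before SNORA62 a score of 2 for PDCD4 only. Such positions, 1 nt before an annotated snoRNA, held 6 PDCD4 sites (21 cDNAs) and 3 IgG sites (10 cDNAs) over all members, and counting them with the snoRNAs would bring the snoRNA share from 14.3% (11.9 to 17.0) to 17.2% for PDCD4 and from 2.28% (0.989 to 4.44) to 5.13% for IgG.

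**Figure D2:**
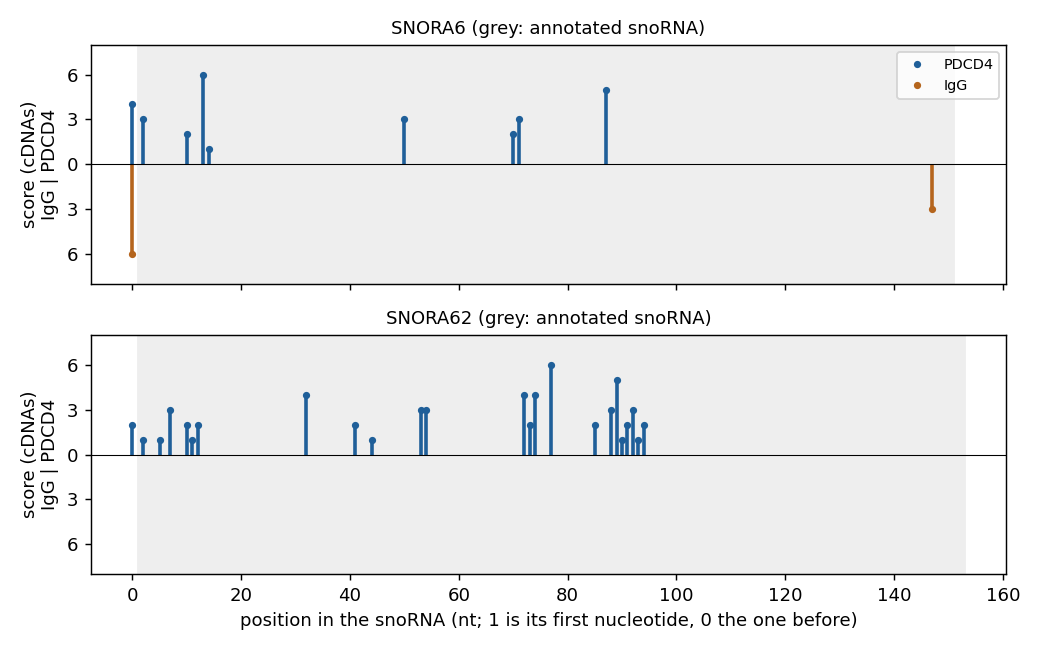
Scores of single sites (cDNAs, y axis) along SNORA6 and SNORA62, which lie in introns of RPSA, with PDCD4 sites drawn upwards and IgG sites downwards, the x axis in nt from the start of the snoRNA and the annotated snoRNA in grey. PDCD4 sites end at nt 87 of SNORA6 and nt 94 of SNORA62, and the IgG list has only 1 site in SNORA6 and 1 just before it.

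The other snoRNAs of the members carried few cDNAs. Of 14 annotated snoRNAs in 7 host genes, 9 held a PDCD4 site and 3 an IgG site labelled with the host gene, and outside RPSA these summed to 22 PDCD4 cDNAs at 11 sites and 5 IgG cDNAs at 2 sites. The IgG list had 1 more site, with 3 cDNAs, in SNORA10 of RPS2, which bore only the label of the snoRNA and so was not counted among the members' sites. With it the IgG sum outside RPSA was 8 cDNAs at 3 sites, whereas the PDCD4 sum did not change. SNORA64 in RPS2 had 6 PDCD4 cDNAs and no IgG cDNA. In RPS3, SNORD15A, of the C/D class that guides ribose methylation, had 4 and 2 cDNAs, and SNORD15B had 2 and none. SNORD101 and SNORA33 in RPS12 had 4 and 3 PDCD4 cDNAs and none in IgG, SNORD73A in RPS3A had 2 and none, and SNORD14B in RPS13 had 1 and none, whereas SNORD14A in RPS13 had 3 IgG cDNAs and no PDCD4 cDNA. Of the 42 PDCD4 sites in these snoRNAs, 31 bore the label of the host gene alone, so that a sum by label would have counted them as ribosomal protein transcripts.

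Among the coding sequences, levels were compared as cDNAs per kb of CDS and per 1000000 cDNAs of the list. The members together had a level of 68.2 for PDCD4 and 36.8 for IgG. The share of coding cDNAs was higher in the PDCD4 list for 16 members and higher in the IgG list for 8, and RPS10, RPS26, RPS27 and RPS28 had no coding site in either list. Such a majority was not limited to the members. By exonic cDNAs, 2330 of the 3340 protein-coding genes that reached the minimum had a higher share in the PDCD4 list, beside 8 of 10 members. The same count for the coding sequence of all genes was not made. By structural group, the CDS of head and beak genes had 153 and 42 cDNAs, a log2 ratio of 1.30 (0.80 to 1.83), and that of body and platform genes 226 and 96, a ratio of 0.67 (0.32 to 1.03). RNA abundance was not analysed here, so a level per kb cannot be told apart from the amount of that mRNA in the cells.

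RPS24, a body protein whose mutations cause Diamond-Blackfan anaemia, had the highest coding level in both lists, at 345 for PDCD4 and 158 for IgG. The PDCD4 sites of its CDS lay in exons 3 and 4, with 24 cDNAs at 8 sites and 31 at 10 sites, and the IgG sites lay in the same exons, with 4 cDNAs at 1 site and 13 at 7 sites. Its introns showed the opposite, with 6 PDCD4 and 19 IgG cDNAs. The gene as a whole was thus level, at 61 and 42 cDNAs and a log2 ratio of -0.03 (-0.62 to 0.57), while its exons gave 1.13 (0.32 to 2.0).

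RPS3, which lines the entry of the mRNA channel in the head, was next in the PDCD4 list, with a coding level of 194, and had 64.6 in the IgG list. Exon 6 alone held 13 PDCD4 sites with 39 cDNAs, against 2 IgG sites with 5, and exon 4 held 8 IgG cDNAs and no PDCD4 cDNA. With its introns and snoRNAs the gene had 76 and 26 cDNAs, a log2 ratio of 0.98 (0.32 to 1.68), and in exons alone 1.66 (0.78 to 2.65).

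RPS25, a head protein required for initiation on several viral internal ribosome entry sites, had 43 PDCD4 cDNAs at 15 sites and no listed IgG site. Its 8 coding sites carried 26 cDNAs, a level of 169, and 20 of these cDNAs lay in exon 2. The remainder comprised 10 cDNAs in introns, including the printed site with a score of 6 at the intron end before exon 2, and 7 outside the canonical transcript. Since the lists hold only sites that passed a filter, no fold against IgG is given.

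RPS2, at the mRNA entry site of the body, had 44 PDCD4 and 9 IgG cDNAs, a log2 ratio of 1.72 (0.67 to 2.94). Of its PDCD4 cDNAs, 25 lay at 9 sites in its last exon, exon 7, where the IgG list had 3 cDNAs at 2 sites. RPS16, whose C-terminal tail reaches the P site, had 27 and 4 cDNAs, a ratio of 2.19 (0.67 to 4.16), with 15 PDCD4 cDNAs in exon 5 and 8 at the mRNA start. The IgG cDNAs of RPS16 lay at 1 site in exon 3. For both genes the counting interval lay above equal shares. It is not adjusted for the choice of these genes by their PDCD4 cDNAs or ratios. In exons alone the ratio was 2.71 (1.02 to 5.06) for RPS2 and 1.96 (0.41 to 3.95) for RPS16, beside 0.65 for the exons of all protein-coding genes. RPS2 also shares most of its sequence with other places in the genome, as described below.

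RPS6, the protein phosphorylated by S6 kinases downstream of mTOR, was cross-linked about equally in both lists. Its coding level was 124 for PDCD4 and 155 for IgG, the second highest of the members in the IgG list, and it had, as a whole, 41 and 35 cDNAs, a log2 ratio of -0.34 (-1.03 to 0.35). Its PDCD4 cDNAs were most numerous in exon 4 (21 at 5 sites, including the printed site with a score of 7) and its IgG cDNAs in exon 5 (12 at 4 sites). RPS4X, a body protein encoded on the X chromosome, had coding levels of 111 and 59.7. All of its 36 PDCD4 cDNAs were coding, whereas 14 of its 27 IgG cDNAs lay in introns, among them a site with a score of 6. RPS19, the protein most often mutated in Diamond-Blackfan anaemia, had coding levels of 107 and 41.6, but 14 and 18 intronic cDNAs, and a whole-gene ratio of -0.17 (-0.96 to 0.64).

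**Figure D3:**
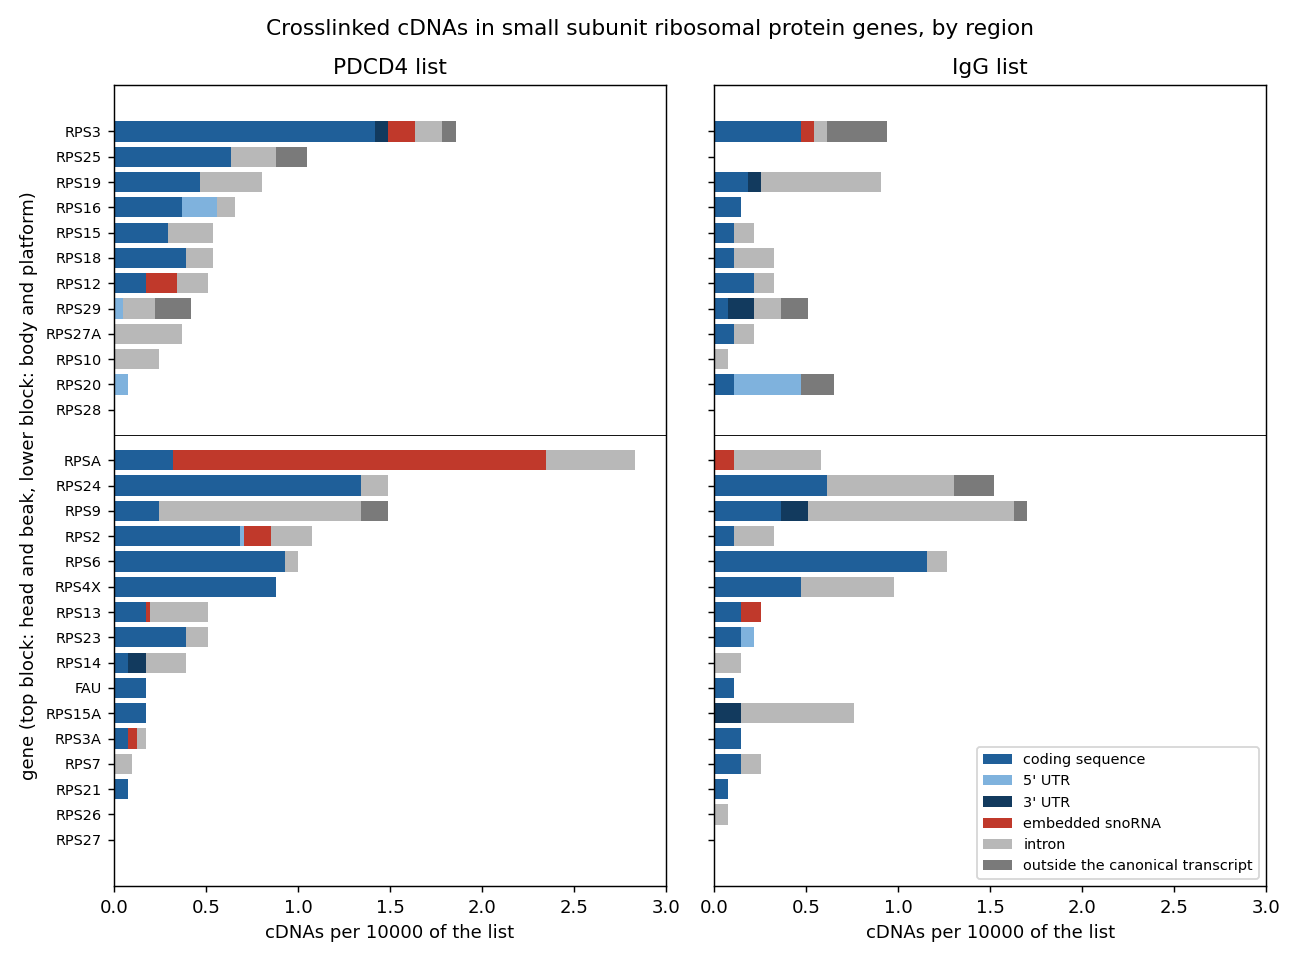
cDNAs per 10000 of the PDCD4 list (left) and the IgG list (right) in each member (bars, x axis from 0), stacked by region and ordered within the head and beak (top block) and the body and platform (lower block). RPSA has the longest PDCD4 bar, most of it snoRNA, RPS3 and RPS24 have the longest coding parts for PDCD4 and RPS6 for IgG, RPS25 has no IgG bar, and RPS27 and RPS28 have none in either list.

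RPS9, a protein of the body near the mRNA entry channel, showed a different profile. It had 61 PDCD4 and 47 IgG cDNAs, a log2 ratio of -0.19 (-0.76 to 0.39), but 45 PDCD4 cDNAs at 20 sites and 31 IgG cDNAs at 12 sites were intronic, with no score above 4 in either list. Its exons had 10 PDCD4 and 14 IgG cDNAs, a ratio of -1.05 (-2.38 to 0.22). RPS9 was thus called more than 2-fold lower by exonic cDNAs, with an interval that includes equal shares.

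Both members that were lower in the PDCD4 list by whole-gene cDNAs rested on few sites. RPS15A, a body protein, had 7 PDCD4 cDNAs at 2 sites in exon 3 and 21 IgG cDNAs at 5 sites, 17 of them at 4 intronic sites, a log2 ratio of -2.15 (-3.63 to -0.86). RPS20, a head protein, had 3 PDCD4 cDNAs, both of its sites lying in the 5′UTR, and 18 IgG cDNAs, of which 10 lay in the 5′UTR, 3 in the CDS and 5 outside the canonical transcript, a ratio of -3.15 (-5.56 to -1.38). The IgG site with the highest score of any member, 7, lay in that 5′UTR and was also listed for PDCD4, with a score of 2. The exons of RPS15A, with 7 and 4 cDNAs, gave 0.24 (-1.74 to 2.46).

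The remaining members had at most 22 PDCD4 cDNAs each. RPS18 in the head had 22 PDCD4 and 9 IgG cDNAs, and RPS15, whose C-terminal tail reaches towards the decoding centre, 22 and 6. RPS23 at the decoding centre and RPS13 in the body had 21 cDNAs each in the PDCD4 list, against 6 and 7. RPS12 in the beak had 21 and 9 cDNAs, and its only coding PDCD4 site, with a score of 7, lay next to an IgG site with a score of 3. RPS14 on the platform, the gene deleted in the 5q- syndrome, had 16 and 4 cDNAs, of which 9 and 4 were intronic. For all 6 of these genes the counting interval of the whole-gene log2 ratio included 0.

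RPS27A and FAU, which are translated as fusions to ubiquitin and to a ubiquitin-like protein, had 15 and 7 PDCD4 cDNAs and 6 and 3 IgG cDNAs, and all 15 of RPS27A were intronic while all 7 of FAU were coding. RPS29 in the head had 17 and 14 cDNAs, RPS10 in the beak 10 and 2, all intronic, and RPS3A on the platform 7 and 4. RPS7 in the body had 4 and 7 cDNAs, RPS21 3 and 2, and RPS26, at the mRNA exit, no PDCD4 cDNA and 2 IgG cDNAs in an intron. RPS27 and RPS28 had no listed site.

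The place of the sites within the mRNAs was then examined. The members have short exons, with a median of 98.5 nt for the 124 exons that end at a junction, and few sites lay close before a junction. The last 60 nt before a downstream junction made up 24.4% of the exonic nucleotides of the members but held 4 of 138 PDCD4 and 2 of 59 IgG exonic sites, which per available position was a log2 ratio of -3.43 (-5.33 to -2.04) and -3.20 (-6.28 to -1.28). Within the CDS, where 43.0% of nucleotides were so placed, 4 of 128 PDCD4 and 1 of 51 IgG sites lay there. No PDCD4 site and 1 IgG site lay in the 29 exons of at most 60 nt. From 51 to 60 nt before the junction there was no site in either list, and from 61 to 70 nt there were 17 PDCD4 and 2 IgG sites, as the plot of site density before exon ends shows. Over all genes the same ratio was -3.12 for PDCD4 and -3.05 for IgG. When only positions followed by 30 nt found once in the genome were used, the members gave -3.80 (-9.12 to -1.28) for PDCD4 and, with 2 of 32 sites near an end, -1.52 (-4.63 to 0.46) for IgG.

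**Figure D4:**
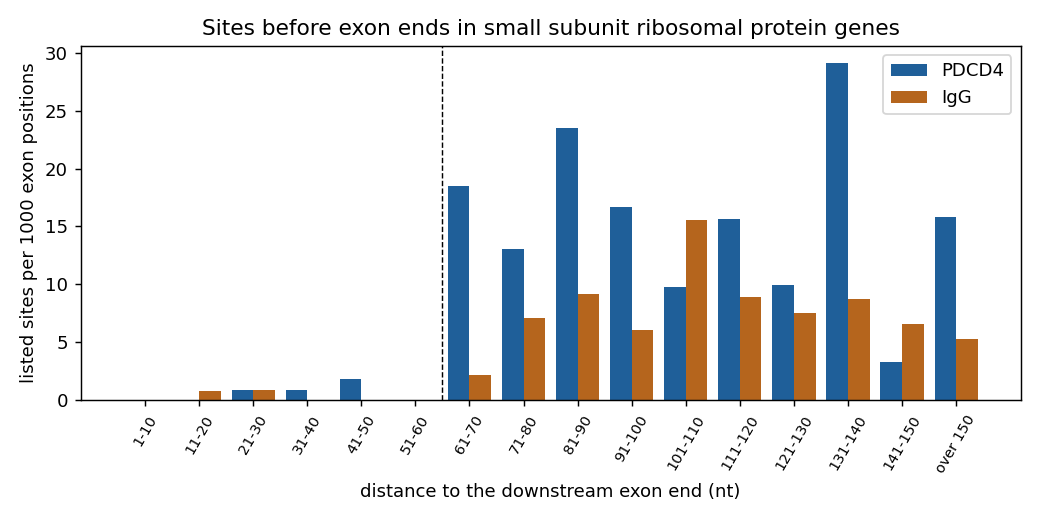
Listed sites per 1000 exon positions of the members (y axis) by distance to the downstream exon end in nt (x axis), for the PDCD4 and IgG lists, with a dashed line at 60 nt. Bars are near 0 up to 60 nt in both lists and rise to the right of the line.

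Sequence shared with other places in the genome had a similar pattern. Members have many processed pseudogenes, and 474 are annotated by symbol, of which 9 had a listed site, with 46 PDCD4 and 44 IgG cDNAs in all. In the CDS of the members, 71.8% of positions are followed by 30 nt that occur again elsewhere in the genome, and 47.2% by 60 nt that do. Only 8 of 128 PDCD4 (6.25%) and 3 of 51 IgG (5.88%) coding sites lay at positions of the 60-nt kind, whereas 47.7% and 49.0% lay at those of the 30-nt kind. RPS3A (96.4% of its mRNA), RPS27 (95.2%), RPS10 (92.4%), RPSA (71.9%) and RPS2 (70.5%) were the members with the most mRNA repeated at 60 nt.

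Coding positions that were both more than 60 nt from an exon end and followed by 60 nt found once in the genome numbered 3935 of 13575, or 29.0%. They held 118 of 128 PDCD4 coding sites (92.2%) and 47 of 51 IgG coding sites (92.2%). RPS26, RPS27 and RPS28 had no such position, RPS10 had 7, RPS29 15, RPS21 20 and RPS3A 28, and these are among the members with few or no coding sites. Across the 28 genes, the share of such positions and the coding cDNAs per kb had a Pearson r of 0.47 and a Spearman rho of 0.66 in the PDCD4 list, and 0.54 and 0.61 in the IgG list, given as a description since the genes share their libraries. Within these positions RPS24 still had the highest PDCD4 level, 959.8 cDNAs per kb and 1000000 cDNAs of the list, against 439.7 in IgG, and the members together had 215 and 111. An absent or low coding signal in a member with few such positions can therefore not be told apart from sequence in which sites were rarely listed in either immunoprecipitation.

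**Figure D5:**
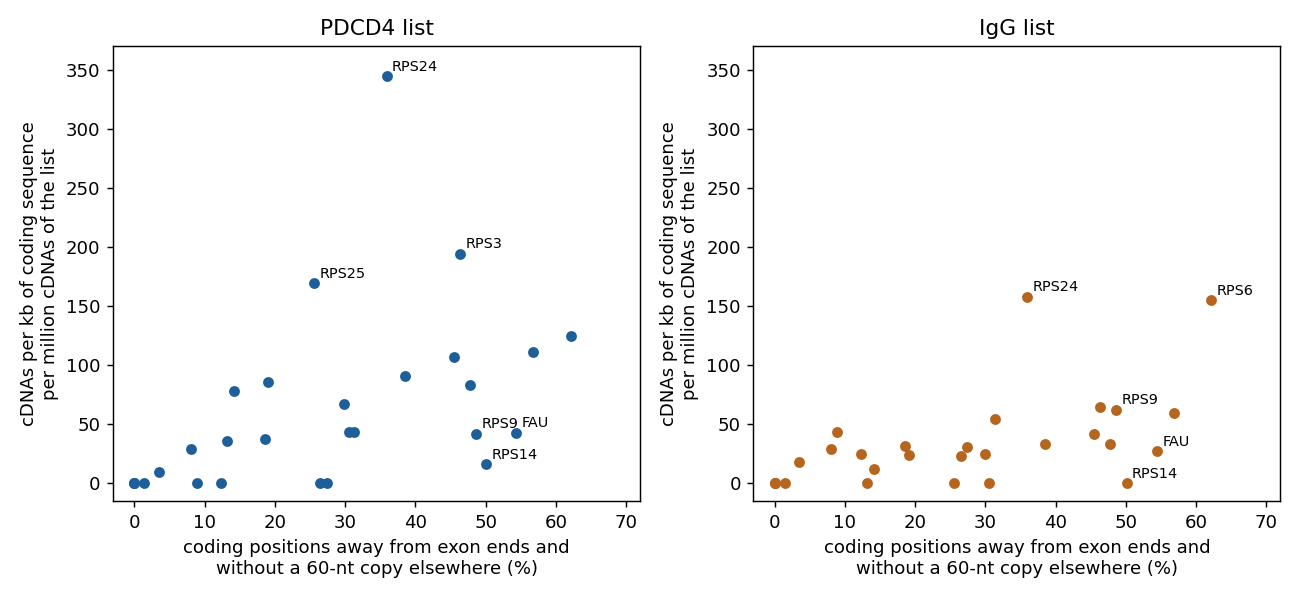
Coding cDNAs per kb and per 1000000 cDNAs of the list (y axis) against the percentage of coding positions away from exon ends and without a 60-nt copy elsewhere (x axis), with 1 point for each of the 28 members. The 3 members without any such position lie at 0 in both lists, and RPS24, at 345 and 158, is the highest point in each.

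In both lists the part of the CDS next to the stop codon held the most sites. The order of the other parts differed, but it rests on few IgG sites and no interval was formed. When each CDS was divided into equal first, middle and last parts, these held 37, 27 and 64 PDCD4 sites and 9, 17 and 25 IgG sites. Over the positions away from exon ends and without copies, of which the parts contained 1262, 1156 and 1517, the PDCD4 sites numbered 35, 27 and 56, or 27.7, 23.4 and 36.9 per kb, and the IgG sites 9, 15 and 23, or 7.13, 13.0 and 15.2 per kb. By cDNAs over the same positions the parts were closer for PDCD4, with 87.2, 77.0 and 96.9 per kb, and the IgG list had 22.2, 32.0 and 36.9.

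The borders of exons held a few single sites. In the PDCD4 list, the last nucleotide of an intron was listed 2 times, in RPS25 and RPS2, with 11 cDNAs, and the first nucleotide of an exon 4 times, in RPS4X, RPS13 and, at the starts of exons 3 and 4, RPS24, with 15 cDNAs. Their scores ranged from 1 in RPS13 to 8 in RPS24. In the IgG list, 1 site with 3 cDNAs lay at an intron end, in RPSA, and none at an exon start.

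At the other end of the mRNA, 23 of the 28 members (82.1%) begin in the annotation with C and 4 pyrimidines, as a TOP mRNA does, beside 4.59% of 20033 protein-coding genes. Within the first 10 nt of the mRNAs lay 6 PDCD4 sites (13 cDNAs), in RPS16, RPS20 and RPS29, and 3 IgG sites (12 cDNAs), in RPS20 and RPS23. Per available position this was 21.4 PDCD4 and 10.7 IgG sites per kb, from few genes. All exonic positions of the members had 4.84 and 2.07, but these include exon ends and 3′UTRs, in which few sites were listed. Coding positions away from exon ends and without copies had 27.7, 23.4 and 36.9 PDCD4 sites per kb in the first, middle and last parts of the CDS. The IgG list had 7.13, 13.0 and 15.2 there. The density at the mRNA starts was thus below that of each part for PDCD4 and within the range of the parts for IgG. RPS16 had scores of 4, 1 and 3 at nucleotides 3 to 5 in the PDCD4 list, within the tract of the printed sequence, and no IgG site there. In RPS20 the IgG scores, 3 and 7 at nucleotides 2 and 3, were higher than the PDCD4 scores, 2 and 1 at nucleotides 3 and 4.

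The base at the listed position was the last feature compared. Uridine was found at 31.2% (23.6 to 39.6) of the 138 exonic PDCD4 sites and 39.0% (26.5 to 52.6) of the 59 exonic IgG sites, and in the CDS alone at 27.3% (19.8 to 35.9) and 37.3% (24.1 to 51.9), where it makes up 21.4% of all positions. Cytidine was about as frequent as uridine at the PDCD4 sites, with 31.9%. At the members' intronic sites the uridine share was 45.9% for PDCD4 and 58.5% for IgG, and at exonic sites of all genes 43.0% and 47.3%. The interval of the members' exonic PDCD4 sites thus lay below the share at exonic sites of all genes. These sets differ in region, since 128 of the members' 138 sites were coding, while the share of all genes pools CDS and UTRs. A share for coding sites of all genes was not computed. The interval of the coding PDCD4 sites included the uridine content of the CDS, and the intervals of the lists overlapped.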

How the data were processed

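Sites were measured by iCLIP in MCF10A cells, with 2 PDCD4 and 2 IgG replicates. The authors mapped reads to the human genome (Ensembl release 88), called sites with iCount and pooled replicates. The methods state that IgG sites were subtracted before peak calling, but 721 positions stand in both lists. The deposited score is the count of cDNAs at each 1-nt site, not normalized, at a false discovery rate of 5%. The methods' filter on scores greater than 5 is not in the deposited lists, whose scores start at 1, and was used here only as an alternative. Aligner settings and the handling of repeated cDNAs and of reads with several matches were not given in the sources used here.

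Counts were summed per gene label, divided by the list's total and compared as log2 ratios with exact counting intervals of 95% (Clopper-Pearson). Ratios printed with an interval have no added count. Calls of more than 2-fold, medians over genes and the alternatives for single members add 1 cDNA to each sum, and calls and medians need 20 cDNAs over both lists. Regions follow the canonical transcripts of GENCODE release 44 (99.5% of labels known), with snoRNAs first. Copies of the 30 and 60 nt after each position were counted in hg38. The scripts were tested on simulated data. The tools were Python 3.11.15, pysam 0.24.0, numba 0.67.0, scipy 1.17.1, numpy 2.4.6, matplotlib 3.10.9 and pandas 2.3.3.

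Members described in full are the 6 with the most PDCD4 cDNAs, the 3 highest and 3 lowest ratios, those with a score greater than 5, and every snoRNA with a site. The members and all lists were chosen with earlier results of these data known. Depth was 409308 PDCD4 and 276139 IgG cDNAs. Alternatives were the score threshold, counting sites, other totals, leaving out shared positions, sites of several genes or RPSA, exons only, pseudocount, minimum, fold, transcripts, region order, window and base position.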

Additional observations from a re-analysis of the deposited data

How the results depend on the processing

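No paired analysis was possible because each deposited list pools its replicates, and for the same reason no replicate could be left out. The members' log2 ratio stayed above 0 under every alternative run except with scores greater than 5, where 85 PDCD4 and 25 IgG cDNAs gave -0.19 (-0.85 to 0.51). That threshold left 0 members with 20 cDNAs, hence 0 higher and 0 lower, an exon share of 68.2% for PDCD4, a snoRNA share of 0 for IgG, uridine shares of 55.6% and 100% for PDCD4 and IgG, and -1.06 for RPSA (2.22 with all scores, 1 cDNA added to each sum). These uridine shares rest on the exonic sites among only 13 PDCD4 and 4 IgG sites, in IgG those of RPS6 and RPS20. Exons alone gave 0.72 and 1 member lower. Members more than 2-fold higher numbered 1 of 6 (with 0 lower) by number of sites, 4 of 20 with a pseudocount of 5 and 2 of 8 (with 0 lower) with a minimum of 50. At 1.5-fold, 11 of 20 were higher. Over all genes, 12.2%, 11.2%, 13.6% and 25.8% were higher by these rules in turn. By number of sites and with a minimum of 50, 11.1% and 12.7% of all genes were lower. Members lower numbered 4 of 26 without a minimum, beside 23.3% of all genes, and 1 without positions in both lists or without sites of several genes. Exons of all transcripts held 70.03% of PDCD4 and 70.4% of IgG cDNAs. Counting the nucleotide before a snoRNA with it, an alternative chosen after the data were seen, gave snoRNA shares of 17.2% and 5.13%. A window of 70 nt before exon ends gave -1.09 for PDCD4, since 17 sites lie from 61 to 70 nt, and positions followed by 30 nt found once in the genome gave -1.52 (-4.63 to 0.46) for IgG. The cause of the other changes was not tested. With so few cDNAs per member, whole-gene ratios of single members outside RPSA, RPS2, RPS3, RPS16, RPS15A and RPS20 (and RPS25, which has no ratio) were not separable from equal shares at this depth. The counting intervals of single members were not adjusted for the number of members compared.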
